A study of Mus musculus with 6 samples.

Results

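Crypt stem cell and Wnt target genes were followed in the distal colon of mice with and without TNFR2, a receptor for tumor necrosis factor encoded by Tnfrsf1b. The set holds 10 genes chosen by symbol, Lgr5, Ascl2, Smoc2, Axin2, Rgmb, Cdca7, Sox9, Rnf43, Znrf3 and Cd44. Each matched 1 row of the deposited expression table, so they are 10 of 23108 named rows. The rule that lists them uses no measured value, but the members were chosen with earlier results of these data known. The study compared 3 wildtype C57Bl/6 males with 3 TNFR2-/- males of the same stated strain, all 8 weeks old and untreated as far as the labels say, with 1 mRNA library of distal colon per mouse. The deleted part of the receptor gene and the breeding of the mice were not given in the sources used here.

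At the base of the colon crypt, epithelial stem cells divide under Wnt signals from the cells beneath them. Wnt proteins bind Frizzled and LRP receptors, which spares beta-catenin from degradation, and beta-catenin then switches on target genes together with TCF factors. R-spondins amplify the signal through Lgr receptors, and several Wnt targets encode inhibitors that dampen it. As cells leave the crypt base the target genes are turned off and the cells differentiate.

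Values are in FPKM, sequenced fragments scaled to transcript length and library size, which allows levels of different genes to be compared. Summed FPKM over named rows lay between 525855 and 583042 per library. Relative depth, read from the steps between low values, ran from 0.736 in wildtype library 3 to 1.10 in knockout library 3, with wildtype library 1 set to 1. The targeted gene Tnfrsf1b measured 7.49, 8.20 and 8.17 FPKM across wildtype mice, against 1.17, 1.12 and 0.924 FPKM across knockout mice. It fell by 2.11 on the log2 scale (limma, adjusted p = 7.12e-05). Libraries also differed in genes of skeletal muscle and skin, and the part of these tissues in the results was not tested. The summed level of 11 skeletal muscle genes was 2685 to 8762 FPKM across wildtype mice, against 150.5 to 2028 FPKM in the knockout, highest in wildtype library 1 and lowest in knockout library 1. For 15 epidermal genes the wildtype sums were 601 to 1365 FPKM and the knockout sums 165 to 1188 FPKM. The sums of 17 hair follicle genes were 23.1 to 146 FPKM across wildtype and 3.61 to 27.3 FPKM across knockout mice. Epithelial markers were present at high levels in every library, with Epcam, a cell adhesion protein of epithelia, between 558 and 772 FPKM.

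The 10 genes spanned a wide range of expression. In wildtype colon the order of mean levels was Rgmb at 27.5 ± 3.78 FPKM, Cdca7 at 23.7 ± 1.15, Smoc2 at 18.2 ± 1.81, Cd44 at 14.0 ± 0.695, Sox9 at 11.5 ± 2.54, Axin2 at 7.90 ± 0.673, Rnf43 at 6.16 ± 1.08, Ascl2 at 2.61 ± 0.537, Znrf3 at 2.34 ± 0.138 and Lgr5 at 1.02 ± 0.190 FPKM (SD, n = 3 each). Ranges of the wildtype libraries overlapped between Rgmb and Cdca7, Cd44 and Sox9, Axin2 and Rnf43, and Ascl2 and Znrf3, so the order within these pairs was not larger than the spread. Lgr5 stood below every other member in all 6 libraries. Its wildtype mean lay at percentile 7.48 of the tested genes, while that of Rgmb lay at percentile 78.1. In knockout colon the order was the same except that Sox9 stood above Cd44.

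None of the 10 genes passed the test between genotypes. RNA came from whole tissue, where fewer cells of a type and less RNA per cell cannot be told apart. The test was limma on log2(FPKM + 1), with Benjamini-Hochberg adjusted p-values over the 14564 genes averaging 0.5 FPKM or more, and a call at an adjusted p under 0.05. All 10 members reached that mean. In the same fit 0.288% of tested genes were called, so a count of 0 among 10 is close to that background. At an unadjusted p under 0.05 there were 2 members, Lgr5 with a higher and Cd44 with a lower mean in the knockout, against 16.2% of all tested genes (6.3% with higher and 9.91% with lower means). The count was 1 without wildtype library 2, without knockout library 1, with scaling to epithelial genes or with a skin gene covariate. Without wildtype library 3 it was 2, but these were Cd44 and Sox9. Adjusted p-values of the members ran from 0.151 for Cd44 to 0.793 for Znrf3.

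Means were higher in the knockout for 4 members and lower for 6, beside 42.6% and 57.4% of all tested genes. The median log2 change of the members was -0.07, and that of all tested genes -0.03. Leaving out single libraries gave member medians between -0.09 and -0.02, lowest without knockout library 3 and nearest 0 without wildtype library 3. With quantile normalization 5 members were higher, 5 were lower and the members' median was 0.0022. Wildtype and knockout libraries did not overlap for 3 members, 1 higher (Lgr5) and 2 lower (Cd44 and Cdca7), where 21.8% of all tested genes had such groups, 9.3% higher and 12.5% lower. With 3 libraries against 3, an exact two-sided permutation test of a single gene cannot go below 0.1. These 3 members reached that value (0.333 after Benjamini-Hochberg adjustment over 10 members), and the other members had exact permutation p-values between 0.3 and 0.6.

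**Figure D1:**
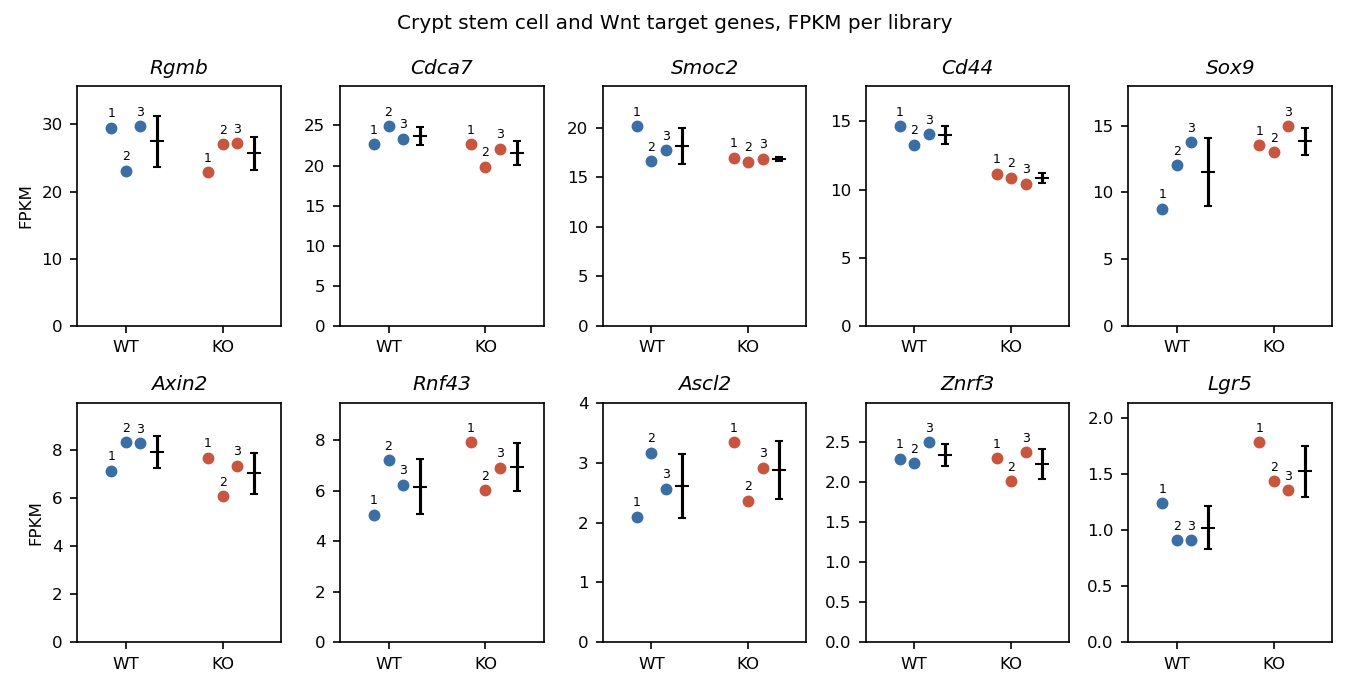
FPKM of each gene (vertical axes from 0) in the 3 wildtype (WT, blue) and 3 knockout (KO, red) libraries, numbered by replicate, with the mean and SD in black beside each group. Knockout libraries all lie above the wildtype libraries for Lgr5 and all below for Cd44 and, by a narrow margin, Cdca7, and the groups overlap for the other 7 genes.

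Lgr5, the receptor for R-spondins that marks cycling crypt stem cells, lies on chromosome 10 (115450314 to 115587780, mm10). It measured 1.24, 0.914 and 0.912 FPKM across wildtype mice, against 1.78, 1.44 and 1.36 FPKM across knockout mice. Every knockout library was above every wildtype library, with knockout library 1 highest and the smallest gap between wildtype library 1 and knockout library 3. The knockout mean of 1.53 ± 0.226 FPKM was 1.49 times the wildtype mean of 1.02 ± 0.190 FPKM (SD, n = 3 each). This gave a log2 change of 0.32 ± 0.11 (SE, 95% interval 0.06 to 0.58), and it did not pass in limma (unadjusted p = 0.0222, Benjamini-Hochberg adjusted p = 0.270). The unadjusted p was above 0.05 without wildtype library 2 (0.0618), wildtype library 3 (0.0760) or knockout library 1 (0.0696). Scaling libraries to epithelial genes also put it above 0.05, with a log2 change of 0.25 (limma, adjusted p = 0.834). So did the mean of skin genes as covariate, chosen after seeing the data, with a log2 change of 0.26. Because Lgr5 is low, 1 added to each value shrinks its change, and with 0.1 in place of 1 the log2 change was 0.54 (limma, adjusted p = 0.271).

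Ascl2, a basic helix-loop-helix factor that sets stem cell identity in the crypt, lies on chromosome 7 (142966822 to 142969264). It measured 2.10, 3.17 and 2.56 FPKM across wildtype mice, against 3.34, 2.37 and 2.91 FPKM across knockout mice. The groups overlapped widely, and wildtype library 1 was lowest. Means were 2.61 ± 0.537 and 2.87 ± 0.486 FPKM (SD, n = 3 each), a log2 change of 0.10 ± 0.14 (SE, 95% interval -0.23 to 0.44; limma, adjusted p = 0.732). The log2 change was -0.000845 without wildtype library 1 and 0.02 without knockout library 1, and 0.21 and 0.20 without wildtype or knockout library 2.

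Smoc2, a secreted calcium-binding matrix protein whose transcript is enriched in Lgr5-positive cells and is also made by stromal cells, lies on chromosome 17 (14279506 to 14404790). It measured 20.2, 16.7 and 17.8 FPKM across wildtype mice, against 17.0, 16.6 and 16.9 FPKM across knockout mice. The 3 knockout libraries were nearly equal and lay at the lower end of the wildtype range. The log2 change was -0.10 ± 0.08 (SE, 95% interval -0.29 to 0.09; limma, adjusted p = 0.542). Without wildtype library 1 it was -0.03, and without wildtype library 2 it was -0.16.

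Rgmb, a membrane-anchored co-receptor for bone morphogenetic proteins, lies on the same chromosome (15804442 to 15831222). It measured 29.5, 23.1 and 29.8 FPKM across wildtype mice, against 22.9, 27.0 and 27.2 FPKM across knockout mice. One library of each genotype, wildtype 2 and knockout 1, stood below the other two, and the groups overlapped. This gave a log2 change of -0.09 ± 0.12 (SE, 95% interval -0.37 to 0.20; limma, adjusted p = 0.734). It was -0.008 without knockout library 1, -0.03 without wildtype library 1 or 3, and -0.20 without wildtype library 2. Wildtype library 2 and knockout library 1 were also the lowest of their genotypes in the summed level of 9 smooth muscle genes, at 6449 and 5932 FPKM against 8016 to 10296 FPKM in the other 4 libraries. The same held for the summed skeletal muscle genes (2685 and 150.5 FPKM) and epidermal genes (601 and 165 FPKM). In the summed epithelial genes these libraries were the highest of their genotypes, at 5274 and 5058 FPKM. The part of tissue make-up in the Rgmb values was not tested.

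Cdca7, a nuclear protein that recruits a chromatin remodeler and is transcribed by Myc and E2F factors, lies on chromosome 2 (72476219 to 72486890). It measured 22.7, 24.9 and 23.4 FPKM across wildtype mice, against 22.7, 19.8 and 22.1 FPKM across knockout mice. The groups were separated by a narrow margin, 22.68 FPKM in the lowest wildtype against 22.66 FPKM in the highest knockout library. The log2 change was -0.13 ± 0.08 (SE, 95% interval -0.31 to 0.05; limma, adjusted p = 0.417). Without knockout library 2 it was -0.08.

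The members that feed back on Wnt signalling did not pass either. Axin2, a scaffold of the complex that degrades beta-catenin and a direct readout of the pathway, lies on chromosome 11 (108920349 to 108950781). It measured 7.12, 8.30 and 8.27 FPKM across wildtype mice, against 7.66, 6.06 and 7.33 FPKM across knockout mice. Knockout libraries 1 and 3 lay within the wildtype range and knockout library 2 below it. This gave a log2 change of -0.15 ± 0.10 (SE, 95% interval -0.40 to 0.09; limma, adjusted p = 0.480). Without knockout library 2 the change was -0.06. An antisense gene, Gm11670, covers 4.86% of the exon bases of Axin2 in the GENCODE annotation, and the use of strand in counting was not given in the sources used here.

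Rnf43 and Znrf3 encode related ubiquitin ligases that remove Frizzled receptors from the cell surface and are themselves inactivated by R-spondins bound to Lgr receptors. Rnf43 (chromosome 11, 87662651 to 87735539) measured 5.04, 7.21 and 6.23 FPKM across wildtype mice, against 7.90, 6.01 and 6.90 FPKM across knockout mice. Its groups overlapped, and the log2 change was 0.15 ± 0.14 (SE, 95% interval -0.17 to 0.48; limma, adjusted p = 0.594). Leaving out wildtype library 1 or knockout library 1 gave 0.04 and 0.07, and leaving out wildtype or knockout library 2 gave 0.26 and 0.24. Znrf3 (chromosome 11, 5276328 to 5444847) measured 2.29, 2.23 and 2.50 FPKM across wildtype mice, against 2.30, 2.01 and 2.37 FPKM across knockout mice. Its log2 change of -0.05 ± 0.09 (SE, 95% interval -0.25 to 0.15; limma, adjusted p = 0.793) was the smallest of the set and had the opposite sign under quantile normalization, at 0.06. It was -0.0018 without knockout library 2, -0.02 without wildtype library 3 and -0.08 without knockout library 3.

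Sox9, a transcription factor of the crypt base that Wnt signals maintain, lies on chromosome 11 (112782210 to 112787757). It measured 8.79, 12.1 and 13.8 FPKM across wildtype mice, against 13.5, 13.0 and 15.0 FPKM across knockout mice. Wildtype library 1 stood well below the other 5, and wildtype library 3 lay within the knockout range. The log2 change was 0.26 ± 0.15 (SE, 95% interval -0.10 to 0.62; limma, adjusted p = 0.420). Without wildtype library 1 it was 0.09 (limma, adjusted p = 0.805). Without wildtype library 3 it was 0.39 (limma, unadjusted p = 0.0329, adjusted p = 0.574).

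Cd44, the hyaluronan receptor, is a Wnt target in crypt cells and is also made by leukocytes, fibroblasts and basal skin cells. It lies on chromosome 2 (102811142 to 102901665). It measured 14.7, 13.3 and 14.1 FPKM across wildtype mice, against 11.2, 10.9 and 10.4 FPKM across knockout mice. Every knockout library was below every wildtype library, and the spread within each genotype was smaller than the gap between them. The knockout mean of 10.8 ± 0.368 FPKM was 77.3% of the wildtype mean of 14.0 ± 0.695 FPKM (SD, n = 3 each). This gave a log2 change of -0.34 ± 0.07 (SE, 95% interval -0.50 to -0.19; limma, unadjusted p = 0.00124, adjusted p = 0.151). It came closest to the threshold of the 10 genes and remained short of it without any single library, with adjusted p-values between 0.0871 and 0.543 in limma.

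**Figure D2:**
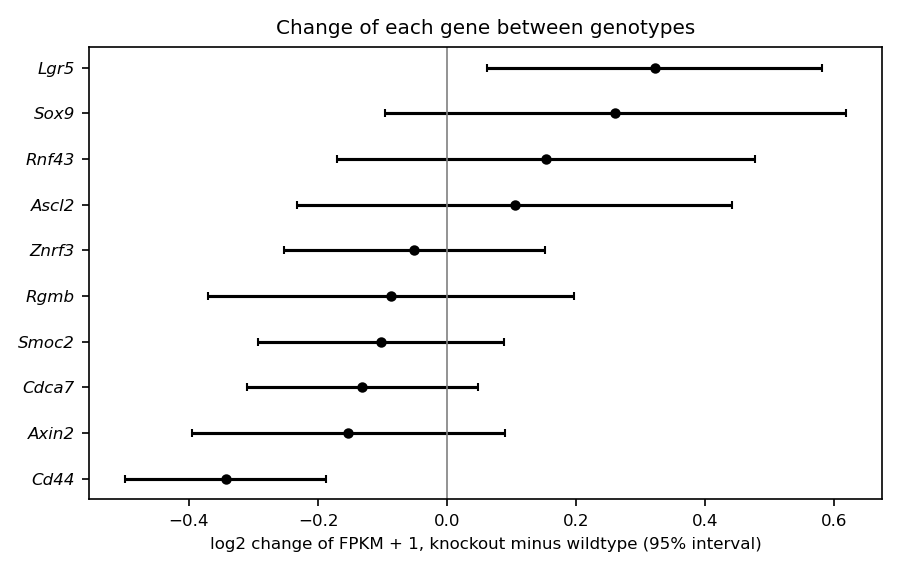
Log2 change of FPKM + 1, knockout minus wildtype (horizontal axis), for each gene, with its 95% interval from limma. The intervals exclude 0 for Cd44 and Lgr5 before adjustment for the number of genes tested, and for 8 of the 10 genes they lie between -0.5 and 0.5.

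For 8 members the 95% interval of the change lay within 0.5 on the log2 scale in either direction, and those of Lgr5 and Sox9 reached past it on the higher side. The interval of Cd44 reached -0.498, close to that bound. Adding 0.1 in place of 1 to each value gave larger standard errors, 0.19 for Ascl2 and 0.16 for Rnf43 against 0.14 each. The count of 8 is therefore given for FPKM + 1 only. In the authors' deposited table all 10 members carried a q-value of 0.999953, where 1.59% of the genes tested here had a q-value under 0.05. The authors' deposited table gave its smallest member p-values to Cd44 (0.0714, log2 fold change -0.38) and Lgr5 (0.122, log2 fold change 0.57).

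Ratios within a library do not depend on how libraries were scaled to each other. Lgr5 over Cd44 was 0.0848, 0.0689 and 0.0649 in wildtype and 0.160, 0.133 and 0.130 in knockout libraries. The knockout values were all higher, with means of 0.141 ± 0.0164 and 0.0728 ± 0.0105 (SD, n = 3 each) and a log2 difference of 0.95. Axin2 over Sox9, both target genes of the pathway, was 0.810, 0.688 and 0.600 in wildtype and 0.566, 0.466 and 0.490 in knockout libraries. Here every knockout value was lower, with a log2 difference of -0.46. Both ratios reached the smallest p that an exact two-sided permutation test allows here (0.1, and 0.2 after Benjamini-Hochberg adjustment over 4 ratios). For Lgr5 over Cd44 this was fixed, since every knockout library was above every wildtype library for Lgr5 and below for Cd44. That ratio therefore adds no test beyond those of the genes. Lgr5 over Ascl2 and Rnf43 over Znrf3 overlapped between genotypes (exact permutation p = 0.3 each), with means of 0.413 ± 0.160 and 2.64 ± 0.528 in wildtype and 0.537 ± 0.0714 and 3.11 ± 0.287 in knockout libraries. Their log2 differences of 0.44 and 0.25 were 0.73 and 0.13 without wildtype library 1 and 0.22 and 0.40 without wildtype library 2.

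The level of epithelial genes differed among the libraries within each genotype. Ordered by the geometric mean of 10 epithelial genes, the libraries ran 1, 3, 2 in wildtype and 2, 3, 1 in knockout. Ascl2, Axin2, Cdca7 and Rnf43, 4 of the 10 members (40%), had this order in both genotypes, as did 14.4% of all tested genes. This order was looked for after the values were seen. The other 6 members did not have it in both genotypes.

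None of the wider Wnt pathway genes passed the test between genotypes. The list held 98 genes besides the members, 97 were matched to a row and 78 were tested, a gene on several lists counted once. Of these, 16 had higher and 62 lower knockout means, where 42.6% and 57.4% of all tested genes did. Their median log2 change was -0.14 beside -0.03 for all tested genes. At an unadjusted p under 0.05, 3 were higher and 14 lower (limma), where 6.3% and 9.91% of all tested genes were. Their number of 17 in both directions was 5 with the replicate block and 3 when libraries were scaled to epithelial genes. It was 9, 30 and 8 without wildtype library 1, 2 or 3, and 11, 11 and 5 without knockout library 1, 2 or 3. Lower means outnumbered higher ones under each scaling tried, from 54 of 78 with quantile normalization to 69 of 78 when libraries were scaled to epithelial genes.

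Among ligands and their helpers, 13 of 14 tested genes were lower on average. Wls, which carries Wnt proteins to the cell surface, was the most highly expressed, at 56.7, 59.2 and 60.0 FPKM across wildtype mice, against 55.9, 50.9 and 53.6 FPKM across knockout mice. The ligand Wnt9a averaged 1.61 ± 0.372 FPKM across wildtype and 1.12 ± 0.254 FPKM across knockout mice, and Wnt4 6.64 ± 1.25 against 5.69 ± 1.13 FPKM (SD, n = 3 each). Wnt5b, another ligand, measured 3.15, 2.66 and 3.26 FPKM across wildtype mice, against 2.62, 2.60 and 2.41 FPKM across knockout mice, and its groups did not overlap (limma, adjusted p = 0.363). Wnt3, Wnt3a and Rspo2 were under the minimum for testing, and Wnt8a is listed at 0 in all 6 libraries. Of the R-spondins 2 of 4 were tested. Rspo3 measured 6.60 ± 1.38 and 6.35 ± 0.949 FPKM, and Rspo1 0.937 ± 0.224 and 0.625 ± 0.0556 FPKM in wildtype and knockout.

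Of 14 tested receptors and co-receptors 5 had higher and 9 lower means, and 3 and 11 when libraries were scaled to epithelial genes. Lgr4, the R-spondin receptor found along the whole crypt, measured 43.3, 52.9 and 46.2 FPKM across wildtype mice, against 58.0, 49.5 and 51.3 FPKM across knockout mice, far above Lgr5. The groups overlapped (limma, adjusted p = 0.463). The receptors with the smallest p were Ptk7, a pseudokinase co-receptor, with 11.2 ± 0.867 and 8.82 ± 0.847 FPKM, and the Frizzled receptors Fzd6, with 5.42 ± 0.629 and 4.36 ± 0.219 FPKM, and Fzd4, with 4.54 ± 0.693 and 3.35 ± 0.533 FPKM (SD, n = 3 each; limma, adjusted p = 0.227, 0.274 and 0.274). Ryk, a Wnt receptor of the receptor kinase family, averaged 33.2 ± 1.66 and 29.6 ± 0.583 FPKM (SD, n = 3 each), without overlap (limma, adjusted p = 0.302).

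Among 17 tested transducers 5 had higher and 12 lower means, and 3 and 14 when libraries were scaled to epithelial genes. Ctnnb1, which encodes beta-catenin, measured 229, 255 and 231 FPKM across wildtype mice, against 251, 223 and 239 FPKM across knockout mice, with a log2 change of -0.0049 ± 0.08 (SE). Tcf7l2, the main TCF factor of the gut epithelium, measured 12.3, 15.9 and 14.7 FPKM across wildtype mice, against 18.8, 17.2 and 17.4 FPKM across knockout mice. Its groups did not overlap, and the log2 change of 0.30 ± 0.10 did not pass (limma, adjusted p = 0.259). Bcl9l, a beta-catenin co-activator, and Dvl1, which relays the receptor signal, had means of 11.1 ± 0.966 and 19.0 ± 1.62 FPKM across wildtype mice and 8.52 ± 0.132 and 15.6 ± 0.273 FPKM across knockout mice (SD, n = 3 each; limma, adjusted p = 0.184 and 0.223). Csnk1a1, a kinase of the degradation complex, averaged 167 ± 9.05 and 154 ± 13.5 FPKM, with overlap.

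Lower means were found for 16 of 19 tested inhibitors. Their median log2 change was -0.20, which was -0.27 without wildtype library 2 and -0.08 without wildtype library 1. Kremen1, a receptor for Dkk proteins, measured 15.4, 13.6 and 15.6 FPKM across wildtype mice, against 11.7, 11.2 and 11.9 FPKM across knockout mice, with no overlap and an adjusted p of 0.181 in limma. Kremen2, its relative, measured 7.78, 10.1 and 7.97 FPKM across wildtype mice, against 7.45, 5.96 and 6.43 FPKM across knockout mice, also without overlap (limma, adjusted p = 0.274). Sfrp1, a secreted protein that binds Wnt, measured 24.9, 16.1 and 22.8 FPKM across wildtype mice, against 13.3, 17.0 and 14.6 FPKM across knockout mice, and wildtype library 2 lay within the knockout range. Dkk3 was the most highly expressed inhibitor, at 30.7 ± 4.23 and 24.7 ± 4.34 FPKM (SD, n = 3 each).

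Other Wnt targets numbered 15 tested genes, 3 with higher and 12 with lower means. The counts were 7 and 8 without wildtype library 2, and 6 and 9 without knockout library 2. Ccnd1, which encodes cyclin D1, measured 26.8, 26.0 and 28.7 FPKM across wildtype mice, against 24.8, 20.8 and 22.6 FPKM across knockout mice, without overlap (limma, adjusted p = 0.261). Lef1, at 0.804 ± 0.0825 and 1.12 ± 0.159 FPKM (SD, n = 3 each), had higher values in every knockout library. Cd24a, a surface protein of crypt base cells, measured 123 ± 11.5 and 108 ± 11.4 FPKM. Tcf7, a TCF factor, averaged 3.38 ± 0.328 and 2.55 ± 0.479 FPKM, and Ets2, a transcription factor, 45.3 ± 3.36 and 44.6 ± 2.64 FPKM (SD, n = 3 each), and both overlapped. Of 20 other tested genes tied to crypt stem or progenitor cells, 8 had higher and 12 lower means, and 10 and 10 with quantile normalization. Soat1, which esterifies cholesterol, measured 16.8, 17.8 and 19.0 FPKM across wildtype mice, against 15.6, 12.7 and 14.6 FPKM across knockout mice, without overlap (limma, adjusted p = 0.234). Mex3a, an RNA-binding protein of crypt base cells, measured 1.22, 1.08 and 1.27 FPKM across wildtype mice, against 0.850, 0.849 and 0.983 FPKM across knockout mice, without overlap (limma, adjusted p = 0.301). Olfm4, a stem cell marker of the small intestine, is listed at 0 in 5 libraries and at 0.0135 FPKM in knockout library 2.

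Bone morphogenetic proteins, for which Rgmb is a co-receptor, oppose Wnt signals towards the crypt surface. Of 19 tested genes of that pathway 3 had higher and 16 lower means, and none was called (median log2 change -0.13; limma, smallest adjusted p = 0.261). Without knockout library 3 the counts were 5 and 14 and the median -0.06, and without wildtype library 2 they were 5 and 14 with a median of -0.18. Bmpr1a, a type I receptor, measured 22.9, 21.1 and 22.5 FPKM across wildtype mice, against 20.1, 17.7 and 19.1 FPKM across knockout mice. Its groups did not overlap. Those of Id1, a target gene of the pathway, did overlap, with means of 188 ± 19.9 and 202 ± 11.9 FPKM (SD, n = 3 each). Among 10 tested genes of surface colonocytes, the differentiated cells, 7 had higher and 3 lower means, and none was called. The smallest adjusted p in limma, 0.205, was that of Emp1, a gene with a lower knockout mean. Without wildtype library 2 or knockout library 2 the counts were 9 and 1. They were 6 and 4 without wildtype library 1 or with scaling to epithelial genes. With the first library of each genotype left out, chosen after seeing the data, they were 4 and 6.

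**Figure D3:**
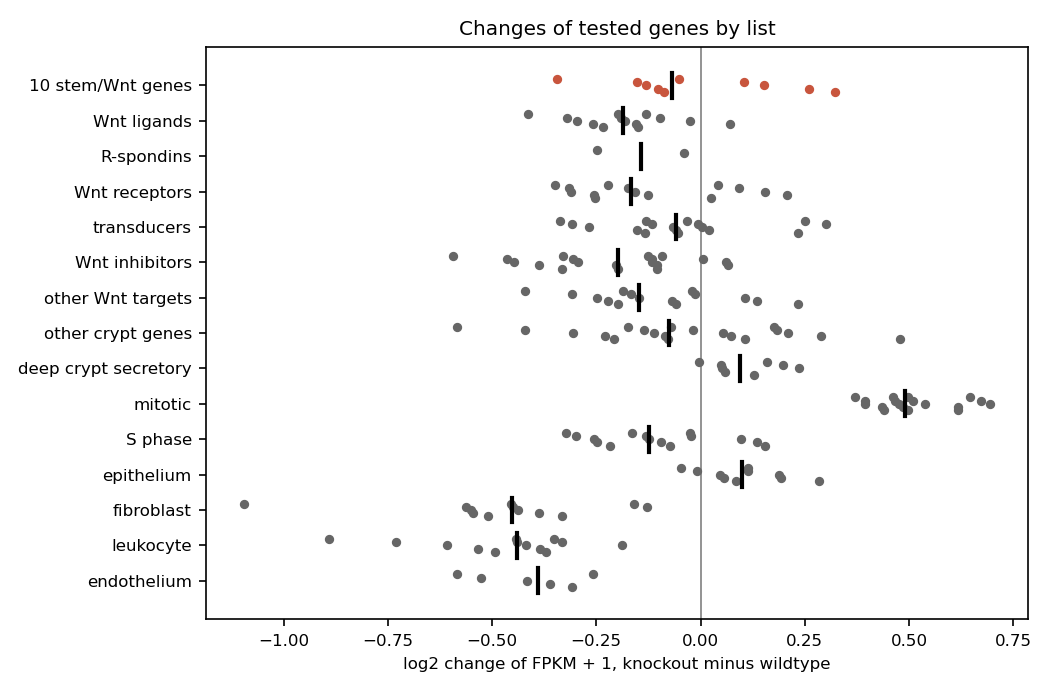
Log2 change of FPKM + 1, knockout minus wildtype (horizontal axis), of each tested gene (points), by list, with the list median as a black bar. The 10 stem cell and Wnt target genes (red) lie on both sides of 0 between -0.34 and 0.32, the mitotic genes all lie above 0 and the fibroblast, leukocyte and endothelial genes all below.

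Genes of dividing cells had higher means beside Lgr5, while genes of DNA synthesis did not. Higher knockout means were found for all 18 mitotic genes (median log2 change 0.49), each at an unadjusted p under 0.05, and none passed in limma (smallest Benjamini-Hochberg adjusted p = 0.107). With quantile normalization 1 of the 18 was called. When libraries were scaled to epithelial genes, all 18 stayed higher (median 0.40), with 12 at an unadjusted p under 0.05 in limma. Without knockout library 1 that number was 16 and the median 0.38. The smallest p was that of Ccnb2, a mitotic cyclin, at 15.0, 14.0 and 15.3 FPKM across wildtype mice, against 28.9, 21.2 and 24.0 FPKM across knockout mice. Cdc20, an activator of the anaphase-promoting complex, averaged 12.2 ± 0.855 and 19.7 ± 3.08 FPKM, and Ube2c, its ubiquitin-conjugating enzyme, 33.5 ± 2.62 and 54.6 ± 10.5 FPKM (SD, n = 3 each). Mki67, the proliferation antigen, measured 11.9, 13.2 and 13.0 FPKM across wildtype mice, against 23.7, 17.6 and 19.2 FPKM across knockout mice. The summed mitotic level was 209.9 to 239 FPKM across wildtype mice, against 283 to 395 FPKM across knockout mice. Of 15 S phase genes 12 were lower on average. Their median log2 change was -0.12, which was -0.04 without wildtype library 2, -0.05 without knockout library 2 and -0.21 without wildtype library 1. The sum of the S phase list was 287 to 369 FPKM across wildtype mice, against 279 to 329 FPKM across knockout mice.

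Lgr5 divided by the geometric mean of the mitotic list was 0.144, 0.0968 and 0.0945 in wildtype and 0.109, 0.122 and 0.101 in knockout libraries. The genotypes overlapped, with wildtype library 1 highest, and the log2 difference was 0.00886. Without wildtype library 1 every knockout value was above both wildtype values and the difference was 0.21. Without any other single library it lay between -0.10 and 0.07. Divided by the geometric mean of the epithelial list, Lgr5 was higher on average by 0.48 on the log2 scale, with overlap between the genotypes. That overlap was gone without wildtype library 1 (0.72) or knockout library 3 (0.60), and the difference was 0.27 without wildtype library 2. Over the fibroblast and leukocyte lists the knockout values of Lgr5 were all above the wildtype values, by 1.07 and 1.24 on the log2 scale. The fibroblast ratio could not overlap, since Lgr5 was higher and the fibroblast list lower in every knockout library than in any wildtype library. Deep crypt secretory cells, the neighbours of colon stem cells, had no gene whose groups were apart. Reg4, which marks them, measured 177, 206 and 180.3 FPKM across wildtype mice, against 249, 165 and 208 FPKM across knockout mice, with overlap. Of 8 tested genes of that list 7 had higher means, which was 4 when libraries were scaled to epithelial genes and 5 without knockout library 1.

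Markers of stroma and leukocytes had lower means, as had Cd44. All 12 fibroblast genes, 13 tested leukocyte genes and 6 tested endothelial genes had lower knockout means, the median log2 changes being -0.45, -0.44 and -0.39, and the directions were the same under each scaling and without any single library. The leukocyte median was -0.27 without knockout library 3. None was called (limma, smallest adjusted p = 0.159, 0.206 and 0.180). The fibroblast sum was 1680 to 2253 FPKM across wildtype mice, against 1306 to 1704 FPKM across knockout mice, and the leukocyte sum 716 to 789 and 359 to 577 FPKM. No marker of these 3 lists was at 0 in any library. Vim, the intermediate filament of mesenchymal cells, measured 267, 229 and 268 FPKM across wildtype mice, against 176, 202 and 142 FPKM across knockout mice. Pdpn, a membrane protein of fibroblasts and lymphatic vessels, measured 14.3, 14.4 and 17.8 FPKM across wildtype mice, against 7.28, 8.93 and 4.53 FPKM across knockout mice. Cd74, the chaperone of MHC class II molecules, averaged 325 ± 2.58 and 200.3 ± 50.8 FPKM, and Cdh5, the cadherin of endothelial cells, 11.2 ± 1.59 and 7.13 ± 0.963 FPKM (SD, n = 3 each). None of these 4 genes overlapped between genotypes, while 7 of 12 fibroblast, 4 of 13 leukocyte and 2 of 6 endothelial genes did. Of all tested genes 12.5% were lower without overlap.

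Cd44 divided by the geometric mean of the fibroblast list was 0.164, 0.188 and 0.163 in wildtype and 0.199, 0.157 and 0.203 in knockout libraries. These values overlapped, as did those over the leukocyte list, at 1.41 ± 0.249 and 1.77 ± 0.603 (SD, n = 3 each). Their log2 differences were 0.12, between 0.05 and 0.23 without single libraries, and 0.29, between 0.03 and 0.52. Without knockout library 2 the fibroblast ratios no longer overlapped (0.23), and without knockout library 3 the leukocyte difference was 0.03. Over the epithelial list Cd44 was 0.0816, 0.0537 and 0.0732 in wildtype and 0.0446, 0.0593 and 0.0449 in knockout libraries. The genotypes overlapped there through wildtype library 2 and knockout library 2, and without either one they did not (log2 differences of -0.65 and -0.61, against -0.48 with all libraries). Over the mitotic list Cd44 was 1.70, 1.41 and 1.46 in wildtype and 0.684, 0.919 and 0.774 in knockout libraries, without overlap, a log2 difference of -0.95. That ratio could not overlap, since Cd44 was lower and the mitotic list higher in every knockout library than in any wildtype library. All 8 ratios of Lgr5 and Cd44 to lists were chosen after the values were seen and carry no test. The part of other cell types in the values of Cd44 and Lgr5 was not tested.

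**Figure D4:**
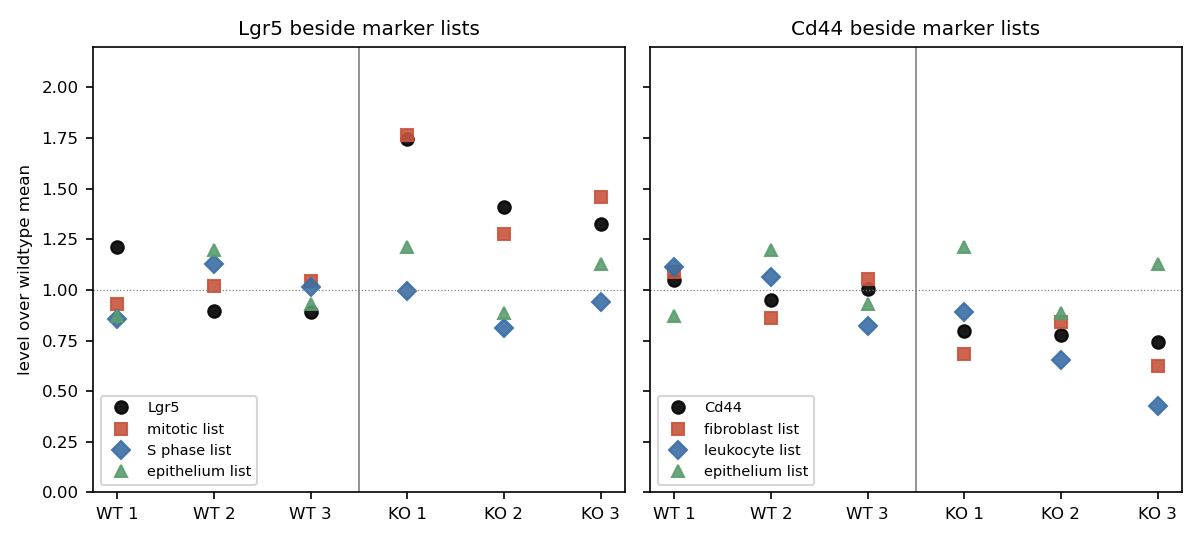
Level of Lgr5 (left) and Cd44 (right) in each wildtype (WT) and knockout (KO) library, with the geometric means of marker lists, each divided by its wildtype mean (vertical axis, from 0). In the knockout libraries Lgr5 and the mitotic list both lie between 1.28 and 1.77, Cd44 lies between 0.745 and 0.798 and the fibroblast list between 0.624 and 0.840. There the S phase list lies between 0.813 and 0.992, the epithelial list between 0.887 and 1.21 and the leukocyte list between 0.426 and 0.892.

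Promoter windows of RefSeq (GRCm38.p6, 250 bases before to 50 after each start) were given for 6 members with 9 windows between them, and not for Lgr5, Smoc2, Sox9 and Znrf3. The TCF/LEF letters CTTTGAT, searched on both strands, were in 0 of the 9 windows, while 3.73% of all 32851 windows held them. No match says only that these letters are not in the windows.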

How the data were processed

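Distal colon mRNA of 3 wildtype and 3 TNFR2 knockout mice was sequenced as paired-end reads of 50 bases. The authors used Tophat 2 with Bowtie 2 for alignment, Cufflinks for assembly and Cuffdiff 2 for testing, per the labels' design text. The deposited FPKM values are per library, per the file headers, on mm10 per the submitters' processing notes. The authors' deposited p-values and q-values, and their log2 fold changes, come from Cuffdiff. The annotation, strandedness and library scaling were not given in the sources used here. FPKM values hold no read counts, so counting error is unknown.

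Here log2(FPKM + 1) of named rows with a mean of at least 0.5 FPKM (14564 rows) was tested with limma 3.58.1 in R 4.3.3, with trend and robust moderation, all 6 libraries and no covariate. Rows without a gene name (6.13% of rows, 17.7% of summed FPKM) were left out. The fit was tested on simulated data. Tables were made with Python 3.11.15 and pandas 2.3.3. Members and gene lists were chosen with earlier results of these data known. The rule for other genes takes from each list the called genes, the 2 highest expressed and up to 3 with the smallest p; the text names many but not all of these. Olfm4, Reg4, Wnt3, Wnt3a, Rspo2 and Wnt8a were named after their values were seen. Libraries of a genotype are separate mice per the labels.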

Additional observations from a re-analysis of the deposited data

How the results depend on the processing

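The count of members called was 0, and that of wider Wnt genes 0, under all 18 alternatives, with limma throughout. At an unadjusted p under 0.05 the alternatives gave 1 or 2 members and 3 to 30 wider Wnt genes. The count over all tested genes, 42 in the reported fit, was 24 with the replicate block, 22 without small RNA genes and 26 with the mean of skin genes as covariate, an alternative chosen after seeing the data. It ran from 21 to 74 when single libraries were left out: 27, 74 and 22 without wildtype library 1, 2 or 3, and 21 without knockout library 3. The share of higher calls was 64.3% in the reported fit, 69.8% with quantile normalization and 50.0% without small RNA genes.

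Axin2, Cd44, Cdca7, Lgr5, Smoc2 and Sox9 kept their direction under all 18 alternatives, with log2 changes of -0.44 to -0.30 for Cd44 and 0.25 to 0.54 for Lgr5. The sign turned for Ascl2 without wildtype library 1 (-0.000845), with the skin covariate (-0.0176) and with the first library of each genotype left out (-0.0863, also chosen after seeing the data). It turned for Rgmb with those libraries left out (0.0468) and with the skin covariate (0.0496), for Rnf43 with those libraries left out (-0.0503) and for Znrf3 with quantile normalization (0.0604); the cause was not tested. Ratios between members kept their direction without any single library, between 0.22 and 0.73 for Lgr5 over Ascl2, -0.56 and -0.35 for Axin2 over Sox9, 0.13 and 0.40 for Rnf43 over Znrf3, and 0.86 and 1.07 for Lgr5 over Cd44. For Lgr5 over Cd44 the direction was fixed by the separation of both genes.

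Deviations of same-numbered libraries from their genotype means had correlations across genes of -0.37, -0.34 and 0.21. Not every library correlated best with its own number. Taken over all genes, these correlations do not settle whether same-numbered mice were paired. With the replicate block, Cd44 had an adjusted p of 0.542 and Lgr5 of 0.572 in limma. The fragment counts behind the values are unknown, so no counting error is given for low genes such as Lgr5.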
